A study of Mus musculus with 12 samples.

Results

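Splenic naive CD4+ T cells of Gr/fr mice were compared by their YFP label, a mark that a cell or its precursor has expressed GM-CSF. The 6 libraries of naive cells were taken by their group names out of 12 in the series, 3 of YFP+ cells and 3 of YFP- cells, and the 6 others are effector memory (TEM) cells sorted in the same way. All groups carry the same alleles on a C57BL/6 background. The Csf2 allele of Gr/fr mice, which encodes GM-CSF, also encodes iCre and BFP, and a Rosa26 allele encodes eYFP behind a floxed stop cassette. Cre is thus driven by Csf2, and the label remains in a cell and its progeny after Csf2 is silent. The mice were 2 to 3 months old. Naive cells were sorted as CD44- and TEM cells as CD44hi, among other surface markers. Reads on genes numbered 44022897, 42976572 and 40974124 in replicates 1, 2 and 3 of the YFP- naive cells and 42682207, 46070449 and 50339210 in those of the YFP+ naive cells.

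A naive CD4+ T cell has left the thymus and has not yet met its antigen. New emigrants from the thymus still carry transcripts of the maturing thymocyte, such as those of the DNA polymerase TdT and of the CD8 beta chain, and lose them as they age in the periphery. Weak contact with self peptides keeps naive cells alive, and its strength is reflected in the level of CD5. A minority of CD4+ T cells are regulatory cells, which depend on FOXP3 and on the IL-2 receptor alpha chain, and some of these have a naive surface phenotype.

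Values are normalized counts (reads divided by the size factor of the library), always listed for replicates 1, 2 and 3 in this order and, where joined by "against", with the YFP- naive libraries first and the YFP+ naive libraries second. Means are given ± SD over n = 3 libraries. Fold changes are on the scale of log2(normalized count + 1), YFP+ minus YFP-, each with its standard error (SE). They came from limma on all 12 libraries and 15587 genes, with p values adjusted by the Benjamini-Hochberg method. A gene was called when its adjusted p was at most 0.05 and its log2 fold change at least 1 in either direction, and a named gene passed by the adjusted p alone. Libraries with the same replicate number varied together, so fits with the replicate number as a block are given where they change a call. One of these is DESeq2, the authors' tool, on the reads recovered from the table. Coordinates follow RefSeq for GRCm38.p6, which is mm10.

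The levels of Cd4 and Cd44 matched the labels. Cd4 had 46335, 37341 and 42047 normalized counts in YFP- naive cells and 49391, 36078 and 41308 in YFP+ naive cells. Cd44 had 3113, 2397 and 2984 against 3372, 2334 and 3115, and a mean of 22014 in YFP- TEM cells. The YFP+ and YFP- naive libraries overlapped for Cd4, Cd44, Cd3e and Ptprc, and none of these passed the test. Csf2 itself was at the limit of detection in naive cells. It had 0, 0 and 3 reads in the YFP- libraries and 1, 4 and 2 reads in the YFP+ libraries. No fold is therefore given here, and fitted values printed further on rest on these few reads. In YFP+ TEM cells Csf2 had 139, 55.9 and 152 normalized counts (on chromosome 11 from 54247270 to 54249899, a span shared with Gm12223). The YFP+ naive cells were thus distinguished by their sort and not by a measurable Csf2 transcript at this depth.

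Replicate 2 of the YFP+ naive cells stood apart from the other naive libraries. It held transcripts of 16499 genes, against 15182 to 15920 in the others. Of 15 monocyte and macrophage markers all 15 were highest in this library, among the 6 naive ones. Their summed level was 987, 1852 and 540.3 normalized counts in the YFP- libraries and 1724, 9989 and 737 in the YFP+ libraries. By this sum the next highest library was replicate 2 of the YFP- cells. In all 3 pairs of libraries with the same number 12 of the 15 markers were higher in YFP+ cells, beside 2523 of 15587 genes. The median log2 difference of these markers was 1.045, 2.855 and 0.62 in the pairs. Their median log2 fold change was 1.53, and 0.30 without YFP+ replicate 2. The most abundant marker by normalized count, Vcam1, had 119, 323 and 28.8 against 335, 2534 and 28.8.

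The other marker lists of splenic cells showed the same library at the top to different extents. All 9 plasma cell markers were highest there, with summed levels of 57.6, 447 and 149.8 in YFP- cells and 138, 3266 and 100.5 in YFP+ cells, led by the antibody gene Igha (39.6, 1722 and 0 in YFP+ cells). Among 9 measured erythroid genes, 8 were highest there, with sums of 575, 678 and 313 against 1087, 4193 and 158, led by the globin gene Hba-a1. The exception was Car2, a carbonic anhydrase. Neutrophil markers (7 of 8 highest there) summed to 5.76, 63.7 and 6.91 against 22.3, 512 and 0.93, led by Csf3r. Of these 8, 7 had 0 reads in YFP+ replicate 3 and 6 in YFP- replicate 1.

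Conventional dendritic cell markers (11 of 12 highest in YFP+ replicate 2) summed to 3306, 5662 and 5069 against 4231, 12300.0 and 4398, led by Cd74. B cell markers (11 of 12) summed to 27860.0, 26950.0 and 29870.0 against 27480.0, 35900.0 and 27120.0, led by Ighm. Ighm alone held 26854, 24131 and 28288 against 26207, 28777 and 25634 and made up most of these sums. For plasmacytoid dendritic cells 7 of 12 markers were highest there, with sums of 3134, 3360.0 and 3279 against 2809, 3897 and 2771, led by Bst2, a gene of many cell types. Their defining markers Siglech, Klk1, Cox6a2 and Smim5 were at or near 0 in 5 libraries, and Siglech reached 16.7 normalized counts in YFP+ replicate 2. Tcf4, Irf8, Spib, Ly6d and Flt3, further members of this list, had reads in every naive library. Their normalized counts were 160 to 274, 353 to 843, 65.5 to 250, 56.9 to 144 and 12.7 to 65.9.

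Markers of 3 further cell types were summed as well. Platelet markers (4 of 6 highest in YFP+ replicate 2) summed to 140.5, 199.5 and 82.9 against 85.3, 259.7 and 78.1, led by Itga2b. NK cell markers (5 of 8) summed to 4195, 2897 and 3766 against 4550.0, 2922 and 3771, led by Prf1, while the NK receptor gene Ncr1 had 0 in 5 libraries. Gamma delta T cell genes (1 of 3) summed to 580.5, 631 and 546 against 570.1, 501 and 467, led by Trdc. What these transcripts contribute to any difference between the naive fractions was not tested, beyond leaving out the library. The main results in naive cells are therefore also given without YFP+ naive replicate 2, a fit in which the YFP+ side has 2 libraries and shares the spread of the others.

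**Figure D1:**
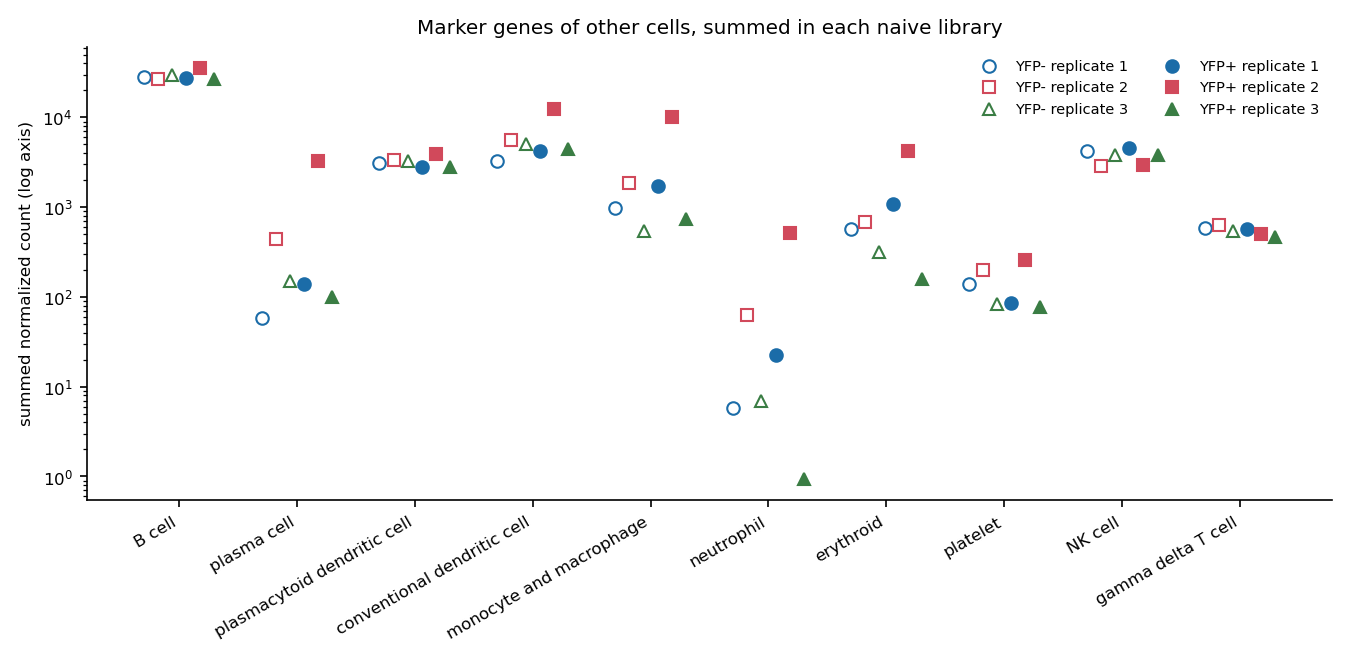
Summed normalized counts (log axis) of the marker genes of 10 other cell types in each of the 6 naive libraries, open symbols for YFP- and filled symbols for YFP+ cells, with 1 shape and colour for each replicate number. YFP+ replicate 2 (filled squares) is highest for plasma cell, monocyte and macrophage, neutrophil and erythroid genes, where YFP- replicate 2 or YFP+ replicate 1 comes next.

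YFP+ and YFP- naive cells differed in few genes. Only Chn2 was called in limma, 1 of 15587 genes (0.00642%), and it was higher in YFP+ cells. At an unadjusted p of 0.05 or less 388 genes were higher (2.49%) and 130 lower (0.834%) in YFP+ cells. All 3 YFP+ libraries lay above all YFP- libraries in 493 genes (3.16%) and below them in 345 (2.21%). The median absolute log2 fold change was 0.0902. The YFP+ and YFP- libraries of one replicate number differed by a median of 0.141, 0.14 and 0.109 on the log2 scale. Libraries of the same group but different numbers differed by 0.203 to 0.329. With 3 libraries on each side an exact permutation p is never smaller than 0.1, and calls depend on variance shared across genes.

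In limma without the block the surplus of higher genes was absent when YFP+ replicate 2 alone was left out. At an unadjusted p it remained, but was smaller, without both naive libraries of replicate 2. By value, 812 genes were higher and 197 lower by at least 1 on the log2 scale. Without that library 404 genes were higher and 476 lower by this margin. The numbers at an unadjusted p of 0.05 or less became 259 higher and 275 lower. Without both naive libraries of replicate 2 these numbers were 319 higher and 218 lower. With quantile normalization of all libraries they were 257 higher and 213 lower, and with the replicate number as a block 630 higher and 255 lower in limma.

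Taking the replicate number as a block brought more genes past the threshold. In limma with the block 6 genes had an adjusted p of 0.05 or less (0.0385%), namely Chn2 and Acsbg1, higher in YFP+ cells, and Il2ra, Foxp3, Nrn1 and Wls, lower. Of these Nrn1, Wls and Acsbg1 were named after their values were seen. In DESeq2 with the block 69 genes reached it, 48 higher (0.401% of 11960 genes with an adjusted p) and 21 lower (0.176%). All 69 had the same sign in the 3 same-numbered pairs, and in 46 of them the YFP+ and YFP- libraries did not overlap. The blocked fit selected the genes on these same pairs, so both traits partly follow from the selection. Differences of at least 1 on the log2 scale were held by 14 of them, 9 higher and 5 lower. Without YFP+ replicate 2, 54 genes reached an adjusted p of 0.05 or less in DESeq2 with the block. They included 32 of the 69, and all 69 kept their direction. Without both libraries of replicate 2 the number was 47, of which 26 were among the 69. Both fits reuse libraries that selected the 69, so neither is an independent check.

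**Figure D2:**
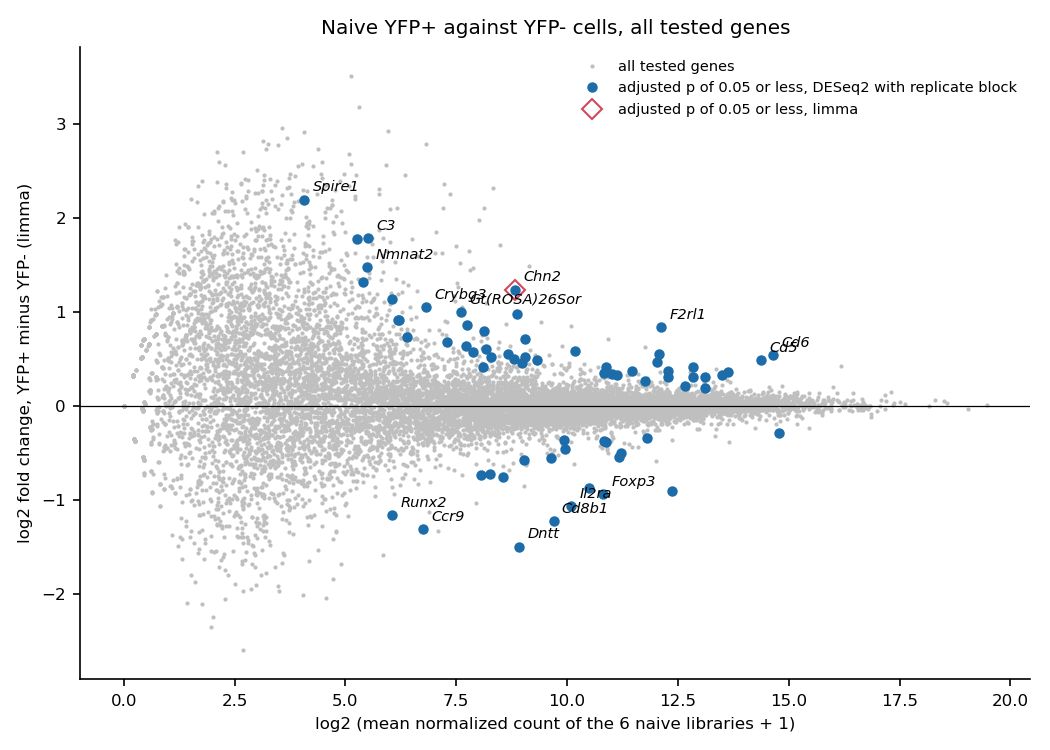
Log2 fold change of YFP+ against YFP- naive cells (limma, vertical axis) by the log2 mean normalized count of the 6 naive libraries plus 1 (horizontal axis), with 1 point for each of 15587 tested genes. Blue points are the 69 genes with an adjusted p of 0.05 or less in DESeq2 with the replicate block, and the diamond marks Chn2, the only gene that passed in limma without the block.

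Chn2 encodes a chimaerin, a GTPase-activating protein for Rac that binds diacylglycerol and acts downstream of the T cell receptor (on chromosome 6 from 54039932 to 54301812, a span shared with 9130019P16Rik, 9530036M11Rik, Gm15526 and Gm15527). It had 232, 264 and 317 normalized counts in YFP- naive cells and 644, 555 and 716 in YFP+ naive cells. The lowest YFP+ library lay above the highest YFP- library. Chn2 rose by 1.24 on the log2 scale (SE 0.13, limma, adjusted p = 0.0101), from 271 ± 43.04 to 638 ± 80.8. The rise was 1.34 without YFP+ replicate 2 (adjusted p = 0.0113). Leaving out 1 of 4 other naive libraries ended the call, although the log2 fold change stayed between 1.13 and 1.36 whichever library was left out. The adjusted p in limma became 0.0583 when YFP- replicate 1 was dropped and 0.0855 when YFP- replicate 2 was. It became 0.0816 after removal of YFP+ replicate 1 and 0.0885 after that of YFP+ replicate 3. It was 1.7e-25 in DESeq2 with the block and 6.9e-04 in limma with the block. In a fit of the 6 naive libraries alone, with 4 residual degrees of freedom, it was 0.875 for the same fold change (limma), and without the variance trend 0.0504.

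No other gene on a list for this pathway passed with Chn2. Of 17 genes of diacylglycerol and Rac signalling Chn2 alone passed the test, and the median log2 fold change of the list was 0.00539 (0.08 without YFP+ replicate 2), beside 0.00689 for all genes. Rac2, the main Rac of blood cells, had 60695, 46295 and 57633 in YFP- cells and 64275, 47389 and 56270.0 in YFP+ cells. The exchange factor gene Tiam1 had 547, 547 and 681 against 420.5, 572 and 509.7, and the groups overlapped for both. Rac2 and Arhgap45 were the most abundant members by normalized count. The paralog Chn1 reached at most 5.76 normalized counts in a naive library. Daglb and Racgap1 were not on this list and were named after their values were seen. Both were higher in DESeq2 with the block (adjusted p = 0.00154 and 0.0129, and 0.0381 and 0.201 without YFP+ replicate 2).

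Crybg3, named by the study with Chn2, encodes a protein with crystallin domains (on chromosome 16 from 59492088 to 59601047, a span shared with Riox2). It had 81.8, 70.02 and 65.7 in YFP- cells and 169, 135 and 151 in YFP+ cells, with no overlap. Crybg3 was higher by 1.05 on the log2 scale (SE 0.19), which did not pass in limma (adjusted p = 0.378, or 0.113 with the replicate block) and passed in DESeq2 without the block (adjusted p = 0.00467) and with it (adjusted p = 6.2e-04, and 9.5e-04 without YFP+ replicate 2).

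**Figure D3:**
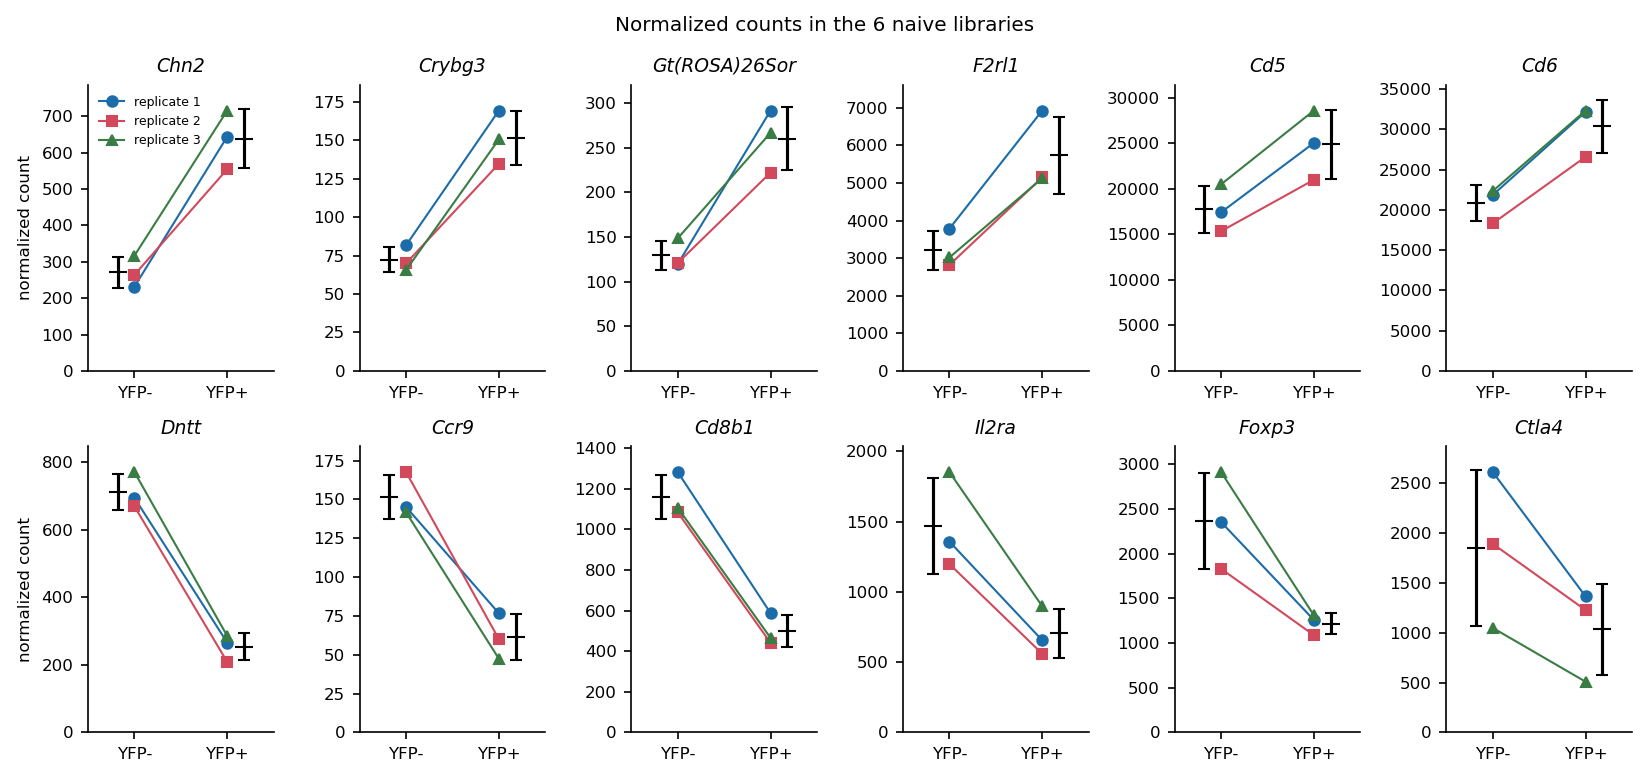
Normalized counts of 12 genes in the 6 naive libraries, with lines joining the YFP- and YFP+ libraries of 1 replicate number and black marks for the mean and SD of each group (n = 3). In the upper row every line goes up and in the lower row every line goes down, and the groups overlap only for Ctla4.

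Genes of thymic cells and recent emigrants lay lower in YFP+ cells where they passed a test. Of 13 listed genes 11 were in the table and 10 were tested. No member passed in limma, and 3 were lower and 0 higher in DESeq2 with the replicate block, beside 0.176% and 0.401% of all genes with an adjusted p there. The list was drawn up with earlier results of these data known, so these shares describe it and do not test it. The median log2 fold change was -0.16 (-0.33 without YFP+ replicate 2), beside 0.00689 for all genes. One member lay higher without overlap, Nt5e, which encodes the ectoenzyme CD73 and was singled out after its values were seen (1230.1, 1344 and 1232 against 1517, 1767 and 1700.2, adjusted p = 0.484 in DESeq2 with the block). In the 3 same-numbered pairs the list median was -0.26, -0.19 and -0.17.

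Dntt encodes TdT, the polymerase that adds bases at the joints of antigen receptor genes in the thymus (on chromosome 19 from 41029275 to 41059525). It had 695, 669 and 771 normalized counts in YFP- naive cells and 266, 209 and 286 in YFP+ naive cells. All YFP+ libraries lay far below all YFP- libraries, and the pairs differed by -1.38, -1.68 and -1.43 on the log2 scale. The mean difference was -1.50 (SE 0.46), and its adjusted p was 1 in limma and 0.38 with the replicate block. In DESeq2 with the block the adjusted p was 0.00267, and 0.00971 without YFP+ replicate 2.

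Cd8b1 encodes the beta chain of CD8, which thymocytes carry together with CD4 before they commit to a lineage (on chromosome 6 from 71322788 to 71337492). It had 1282, 1083 and 1106 in YFP- cells and 587, 441 and 465 in YFP+ cells, again with a wide gap between the groups. The difference came to -1.22 (SE 0.24) on the log2 scale, with an adjusted p of 0.559 in limma, 0.083 with the replicate block and 0.00467 in DESeq2 without the block and 2.4e-06 with it (2.7e-05 without YFP+ replicate 2). Cd8a, the gene of the CD8 alpha chain, was much lower in reads and had 39.2, 82.8 and 62.2 in YFP- cells and 21.02, 75.8 and 35.3 in YFP+ cells, with overlap between the groups. It was lower in each pair (-0.87, -0.13 and -0.80), and its log2 fold change of -0.60 was -1.08 without YFP+ replicate 2, with no pass in either fit. The median of the 11 genes of CD8+ and cytotoxic T cells was 0.09. Prf1 had 4030.1, 2677 and 3532 against 4279, 2632 and 3483, and Ccl5 had 4.61, 31.8 and 24.2 against 14.8, 59.03 and 18.6. Runx3, a transcription factor of the CD8 lineage, had 7039.6, 5508 and 6957 against 9033, 7066 and 8108 and passed only in DESeq2 with the block (log2 fold change 0.31, adjusted p = 0.0197, and 0.425 without YFP+ replicate 2, where the log2 fold change was 0.27). It was singled out after its values were seen.

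Ccr9 encodes a chemokine receptor of thymocytes and gut-homing T cells (on chromosome 9 from 123767211 to 123783457, a span shared with Gm17021). It had 145, 168 and 142 in YFP- cells and 76.7, 60.02 and 47.4 in YFP+ cells. The log2 fold change was -1.31 (SE 0.41), with an adjusted p of 1 in limma and 0.0295 in DESeq2 with the replicate block. This last value rose to 0.197 without YFP+ replicate 2 and fell to 1.7e-04 without both libraries of replicate 2, while the log2 fold change in this fit went from -1.34 to -1.65 without YFP+ replicate 2. Themis and Tox, the most abundant members of the list by normalized count, had 9119, 6808 and 7539 and 5900.5, 4387 and 5071 in YFP- cells and 8863, 5713 and 7325 and 6071, 4329 and 4756 in YFP+ cells, and the groups overlapped. The recombinase gene Rag1 was at the floor, with 1.15, 2.12 and 2.3 in YFP- cells and 0 in all YFP+ libraries. Ccr9, Dntt and Runx2, described further on, are also transcribed in plasmacytoid dendritic cells. The defining markers of these cells were at or near 0 in 5 naive libraries, with Siglech at 16.7 in YFP+ replicate 2. Other markers on their list were present in all naive libraries, such as Irf8 (353 to 843) and Tcf4 (160 to 274). The part of such cells in the result was not tested.

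The promoters of the called gene and of 2 thymic genes that were lower together are shown from RefSeq (GRCm38.p6, plus strand, the 250 bases before the start of each gene as annotated). All 3 genes had an entry in the table. Capitals mark CANNTG, the E-box bound by E proteins, which regulate thymocyte genes. The word reads the same on both strands, and 66.2% of 32851 promoter windows of this length hold it. Dntt holds 3 matches, Ccr9 2 and Chn2, which has 4 start sites in the table of which the first is shown, 0. The word occurs 0 times in the same window of Il2ra and 1 time in that of Foxp3, which are not shown, so its count did not separate the lower genes from Chn2. A match is a description of the letters and not a site. The words GGAA (93.4% of windows, either strand), CTTTG (48.6%) and TGTGGT (14% of windows), cores of ETS, TCF and RUNX sites, were searched too and occur 1, 0 and 0 times in Dntt, 1, 1 and 0 times in Ccr9 and 1, 0 and 0 times in Chn2. 
Dntt, chr19:41029025-41029274: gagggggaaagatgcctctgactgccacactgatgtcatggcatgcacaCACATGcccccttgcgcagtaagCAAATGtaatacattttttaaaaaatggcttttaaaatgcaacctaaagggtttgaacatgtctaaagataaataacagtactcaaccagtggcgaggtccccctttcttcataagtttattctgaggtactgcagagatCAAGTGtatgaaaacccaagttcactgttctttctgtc
Ccr9, chr9:123766961-123767210: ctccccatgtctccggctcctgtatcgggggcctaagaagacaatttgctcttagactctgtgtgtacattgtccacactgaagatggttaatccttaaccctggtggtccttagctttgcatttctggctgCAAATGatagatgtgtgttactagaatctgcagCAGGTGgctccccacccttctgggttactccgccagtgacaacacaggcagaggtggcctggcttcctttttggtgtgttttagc
Chn2, chr6:54039682-54039931: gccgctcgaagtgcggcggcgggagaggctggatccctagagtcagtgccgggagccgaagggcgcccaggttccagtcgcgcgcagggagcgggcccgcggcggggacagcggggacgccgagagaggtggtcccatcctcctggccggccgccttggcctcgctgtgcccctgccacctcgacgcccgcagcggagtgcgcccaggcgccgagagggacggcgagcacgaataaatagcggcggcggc

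Regulatory T cell genes were the list with the lowest median. All 14 were tested, and 11 had a negative and 3 a positive log2 fold change, with a median of -0.40 (-0.48 without YFP+ replicate 2). None passed in limma without the block. With the replicate block 2 passed in limma and 4 in DESeq2, all lower in YFP+ cells, beside 0.0385% of all genes in limma and 0.176% lower in DESeq2. For 7 of 14 the YFP+ libraries lay entirely below the YFP- ones, beside 2.21% of all genes. This list too was drawn up with earlier results of these data known, so its shares and rank are descriptive only.

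Foxp3 encodes the transcription factor that defines regulatory T cells (on chromosome X from 7579676 to 7595243, a span shared with Ccdc22 and Flicr). It had 2352, 1829 and 2911 in YFP- naive cells and 1256, 1087 and 1309 in YFP+ naive cells, and every YFP+ library lay below every YFP- library. Foxp3 differed by -0.94 on the log2 scale (SE 0.24), with adjusted p values of 0.947 in limma, 0.0126 in limma with the replicate block and 1.2e-11 in DESeq2 with the block. Without YFP+ replicate 2 Foxp3 differed by -1.07 (adjusted p = 0.00229) in limma with the block and by -0.86 (adjusted p = 1) without the block. In sorted bulk cells, fewer cells of a type and less RNA per cell cannot be told apart.

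Il2ra encodes the IL-2 receptor alpha chain, CD25 (on chromosome 2 from 11642792 to 11693194, a span shared with Gm39760). It had 1358, 1198 and 1852 in YFP- cells and 655, 559.8 and 898 in YFP+ cells. The differences within the pairs were -1.05, -1.10 and -1.04 on the log2 scale, although the levels varied between replicate numbers. The adjusted p was 0.947 in limma, 0.00554 with the replicate block and 5.4e-15 in DESeq2 with the block, for a log2 fold change of -1.06 (SE 0.26). Without YFP+ replicate 2 Il2ra differed by -1.11 (adjusted p = 0.0124) in limma with the block and by -0.91 (adjusted p = 1) without the block.

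Ctla4 encodes an inhibitory receptor, and Lrrc32 the surface carrier GARP of latent TGF-beta. Both were named after their values were seen. Ctla4 had 2609, 1889.5 and 1047 in YFP- cells and 1363, 1226 and 508 in YFP+ cells, so that the groups overlapped while each pair went down. Lrrc32 had 517, 361 and 551 against 317, 235 and 286, with no overlap. Their adjusted p in DESeq2 with the block was 2.5e-04 and 0.00344, 5.6e-05 and 0.00106 there without YFP+ replicate 2, and 0.174 and 0.184 in limma with the block.

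Of the other members, 4 lay entirely below in YFP+ cells without passing in limma or in DESeq2 with the block. The transcription factor gene Ikzf2 had 832, 904 and 865 in YFP- cells and 477, 768 and 619 in YFP+ cells (log2 fold change -0.50, adjusted p = 0.151 in DESeq2 with the block). The integrin gene Itgae had 174, 110.3 and 93.3 against 71.7, 92.5 and 47.4, with an adjusted p of 0.308 in DESeq2 with the block and 3.1e-05 without YFP+ replicate 2. The transcription factor gene Ikzf4 had 686, 643 and 679 against 565, 611 and 465, and the receptor gene Gpr83 had 885, 918 and 1086 against 617, 767 and 702. Itgae, Ikzf4 and Gpr83 were singled out after their values were seen. The folate receptor family gene Izumo1r had 4055, 3923 and 5586 against 4955, 4112 and 5942, and Tnfrsf18, which encodes GITR, had 2466, 1902 and 1991 against 2358, 1817 and 2013. Both of these overlapped between the groups.

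Cd5, Cd6 and F2rl1, which encode surface receptors, lay higher in YFP+ cells. The genes in this paragraph and the next were singled out after their values were seen, and none passed in limma without the block, while Cd6, F2rl1, Wls and Nrn1 passed in DESeq2 without it (adjusted p = 0.00467, 0.00421, 4.3e-07 and 0.00507). Cd5, a brake on T cell receptor signals, had 17427, 15351 and 20499 in YFP- naive cells and 25053, 20998 and 28609 in YFP+ naive cells. Its neighbour and relative Cd6 on chromosome 19 had 21851, 18322 and 22347 against 32183, 26594 and 32342. For both genes no YFP+ library overlapped a YFP- library, and the pairs differed by 0.52, 0.45 and 0.48 in Cd5 and by 0.56, 0.54 and 0.53 in Cd6 on the log2 scale. The adjusted p was 3.8e-04 for Cd5 and 5.3e-06 for Cd6 in DESeq2 with the replicate block, 3.1e-05 and 1.7e-05 there without YFP+ replicate 2, and 0.184 and 0.117 in limma with the block. F2rl1, which encodes the protease-activated receptor PAR2, had 3782, 2818 and 3017 against 6925, 5146 and 5125, with an adjusted p of 6.5e-05 in DESeq2 with the block and 2.4e-05 without YFP+ replicate 2.

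Genes of other functions passed in the same fits. Acsbg1, an acyl-CoA synthetase gene, had 488, 384 and 437 in YFP- cells and 688, 567 and 629 in YFP+ cells (limma with the replicate block, log2 fold change 0.53, adjusted p = 0.0238, and 0.49 with 0.114 without YFP+ replicate 2). In DESeq2 with the block its adjusted p was 1.2e-06, and 0.00147 without that library. Dapl1, a gene of naive and quiescent T cells, had 3712, 2817 and 3953 against 5509, 3979 and 5968 and differed by 0.57, 0.50 and 0.59 within the pairs (adjusted p = 2.4e-06 in DESeq2 with the block, and 9.5e-04 without YFP+ replicate 2). The survival gene Bcl2 had 10263, 11793 and 11117 against 12834, 15488 and 14298. Its adjusted p of 0.0242 in DESeq2 with the block became 0.425 without YFP+ replicate 2, and the log2 fold change went from 0.36 to 0.32. Lower in YFP+ cells was Wls, needed for the secretion of Wnt proteins, with 643, 602 and 639 against 430.4, 442 and 395. Nrn1, which encodes the surface protein neuritin, had 306, 379 and 304 against 187, 222 and 184. In limma with the block their adjusted p was 0.0179 and 0.0126, and 0.0229 and 0.0398 without YFP+ replicate 2.

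Immediate early genes varied between replicate numbers in both fractions. Of 22 genes of tonic T cell receptor signals and immediate early responses 0 passed in limma and 2 in DESeq2 with the block, Cd5 and Fosb. Over all genes 0.00642% passed in limma, and in DESeq2 with the block 0.401% passed as higher and 0.176% as lower, here and for the lists that follow. The list median was 0.04 (-0.00907 without YFP+ replicate 2). Fosb had 130.2, 573 and 249 in YFP- cells and 246, 1016 and 571 in YFP+ cells, and its adjusted p of 0.0164 became 0.576 without YFP+ replicate 2, while the log2 fold change in this fit went from 0.98 to 1.03. Junb had 25511, 53970.0 and 31208 against 22849, 57516 and 35720.0, highest in replicate 2 of both fractions. Of 17 genes of the T cell receptor complex and its proximal signalling, Cd6 alone passed in DESeq2 with the block, and the median was -0.03 (0.04 without YFP+ replicate 2). Trac, the constant segment of the receptor alpha chain, had 72539, 52934 and 64815 against 74836, 52213 and 60252.

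The Rosa26 locus, into which the eYFP reporter is built, also differed between the fractions. Gt(ROSA)26Sor, the noncoding RNA of the locus (on chromosome 6 from 113067428 to 113077244, a span shared with Thumpd3), had 119.8, 121 and 149 normalized counts in YFP- naive cells and 292, 222 and 267 in YFP+ naive cells, without overlap. On the log2 scale the difference was 1.00 (SE 0.21), and its adjusted p was 0.561 in limma, 0.00507 in DESeq2 without the replicate block and 0.00524 with it, or 0.00147 without YFP+ replicate 2. Its neighbours were level, with 1906, 2153 and 2216 against 1952, 2117 and 2305 for Thumpd3, which overlaps it, and 11451, 9890.1 and 10533 against 11685, 11238 and 11260.0 for Setd5. At the Csf2 locus Acsl6 had at most 3.94 normalized counts and P4ha2 had 50.7, 117 and 121 against 61.8, 93.5 and 109.8, with overlap. The reporter sequences themselves were not analysed here.

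Some of the largest differences lay in YFP+ replicate 2. Spire1, an actin nucleation gene (on chromosome 18 from 67488209 to 67612810, a span shared with Gm17669), had 2.3, 4.24 and 4.61 in YFP- cells and 13.6, 61.0 and 9.3 in YFP+ cells. C3, which encodes complement component 3, had 10.4, 25.5 and 2.3 against 25.97, 199 and 6.51, with overlap. Spire1 passed in DESeq2 without the replicate block (adjusted p = 0.0482). In DESeq2 with the block both passed (adjusted p = 0.0318 and 0.0241) and without YFP+ replicate 2 their adjusted p was 1. The endocytic adaptor gene Hip1 had 11.5, 23.3 and 26.5 against 64.3, 186 and 26.97, and the kinase gene Cdc42bpb had 36.9, 27.6 and 40.3 against 60.6, 189 and 62.3. Asb2, which encodes a subunit of a ubiquitin ligase, had 20.7, 54.1 and 49.5 against 63.1, 184 and 60.5. For these 3 genes the other YFP+ libraries lay nearer to the YFP- ones, none passed in limma or in DESeq2 with the block, and the log2 fold changes of 1.78, 1.35 and 1.20 became 1.07, 0.82 and 0.68 without that library. Hip1 passed in DESeq2 without the block (log2 fold change 2.18, adjusted p = 0.0203).

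Further genes with a higher mean in YFP+ cells had few reads and were not highest in that library. Nmnat2, an NAD synthesis gene, had 32.2, 22.3 and 13.8 in YFP- cells and 82.9, 75.8 and 37.2 in YFP+ cells. Enpp2, which encodes autotaxin, had 14.97, 7.43 and 28.8 against 30.9, 58.05 and 83.7, and Npas2, a clock gene, had 18.4, 14.9 and 36.9 against 35.9, 55.1 and 87.4. Fam124b had 28.8, 51.99 and 40.3 against 69.3, 80.7 and 119, and of these 4 genes only Npas2 overlapped between the groups. Their log2 fold changes of 1.47, 1.77, 1.32 and 1.13 passed in DESeq2 with the replicate block (adjusted p from 0.00119 to 0.0428) but not in limma. In DESeq2 with the block without YFP+ replicate 2 none of the 4 passed, with adjusted p from 0.0523 to 0.436 and log2 fold changes of 1.35, 1.70, 1.18 and 1.12. Rbpms (16.1, 31.8 and 48.4 against 79.1, 70.8 and 92.1), the neuropeptide gene Qrfp (127, 125 and 81.8 against 284, 208 and 229) and Gm3893 (49.5, 14.9 and 67.97 against 96.5, 72.8 and 87.4) had no overlap either. They did not pass in these fits, but Qrfp did in DESeq2 with the block without YFP+ replicate 2 (adjusted p = 1.9e-04, and 0.0723 with it).

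Among the lower genes were 3 more with no overlap between the fractions. Runx2, a transcription factor gene (on chromosome 17 from 44495987 to 44814797, a span shared with Runx2os3 and Supt3), had 109, 93.4 and 66.8 in YFP- cells and 29.7, 56.1 and 35.3 in YFP+ cells, with a log2 fold change of -1.16 (SE 0.23) and -1.42 without YFP+ replicate 2. Its adjusted p was 0.561 in limma, 0.00507 in DESeq2 without the replicate block and 0.00154 with it, or 2.7e-05 without YFP+ replicate 2. The prohormone convertase gene Pcsk1 had 259, 161 and 154 against 124, 64.9 and 49.3, and Csgalnact1, of chondroitin sulfate synthesis, had 109, 76.4 and 79.5 against 38.3, 49.2 and 49.3. Neither passed in limma or in DESeq2 with the block. Pcsk1 passed there without both libraries of replicate 2 (adjusted p = 0.0054).

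Gene programmes of naive and memory cells gave few genes past the threshold. Of 18 naive and quiescence genes 0 passed in limma and Dapl1 alone in DESeq2 with the block, with a list median of 0.02 (0.06 without YFP+ replicate 2). The transcription factor gene Tcf7 had 161390.0, 140290.0 and 145420.0 against 165210.0, 135510.0 and 137490.0, and Btg1 had 119510.0, 96913 and 93218 against 121550.0, 91345 and 88408. Igfbp4 had 66701, 59832 and 61261 against 99588, 78511 and 76444, without overlap, and did not pass in either fit. Of 24 effector memory genes none passed in these fits, and the median was 0.07 (0.04 without YFP+ replicate 2). Vim had 17672, 15304 and 17565 against 20567, 17683 and 18597, and Lgals3, at 17.3, 32.9 and 23.04 against 38.3, 143 and 25.1, was highest in YFP+ replicate 2.

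Markers that the study stained for stem cell memory cells and other T cell subsets gave no gene past the threshold in these fits among 5 tested. Ly6a, the gene of Sca-1, had 4826, 8125 and 5584 in YFP- cells and 5676, 8316 and 6433 in YFP+ cells, and Il2rb, the IL-2 receptor beta chain, had 3899.9, 3142 and 3675 against 2733, 2809.9 and 2345. The YFP+ libraries lay below the YFP- ones for Il2rb (log2 fold change -0.44, adjusted p = 0.0804 in DESeq2 with the block, 0.0148 there without YFP+ replicate 2). Il7r, the receptor gene for the survival cytokine IL-7, had 60070.0, 62434 and 59010.0 against 69377, 69958 and 69046, with the YFP+ libraries above the YFP- ones and no pass. Fas (1307, 1498 and 1047 against 1156, 1475 and 1003) and Cd27 (9474, 9112 and 11210.0 against 8982, 8372 and 10687) overlapped.

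Most effector cytokine genes had few reads. Of 15 listed, 14 were in the table and 12 were tested, none passed, and the median was -0.01 (-0.02 without YFP+ replicate 2). Ltb, a lymphotoxin gene of resting T cells, had 21826, 17500.0 and 24746 against 22958, 16740.0 and 23254, and Tnf had 281, 421 and 447 against 163, 305 and 459, with overlap. Ifng had 0, 6.37 and 1.15 against 1.24, 1.97 and 0. Of 14 lineage transcription factor genes 1 was higher (Runx3) and 1 lower (Foxp3) in DESeq2 with the block, and the median was -0.06 (-0.01 without YFP+ replicate 2). Zbtb7b, the factor of the CD4 lineage, had 11194, 10934 and 16794 against 11469, 11515 and 16688. Of 21 receptors and regulators of GM-CSF only Il2ra passed in a blocked fit (median 0.04). The GM-CSF receptor gene Csf2rb2 had 1.15, 11.7 and 8.06 against 18.6, 105 and 13.02, highest in YFP+ replicate 2.

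Lists of general cell functions gave 1 gene past the threshold and small medians, some of which moved without YFP+ replicate 2. The median log2 fold change was -0.01 in 10 BCL2 family genes, where Bcl2 alone passed in DESeq2 with the block, and 0.05 in 15 glycolysis genes (0.18 without YFP+ replicate 2, and 0.14, 0.02 and -0.03 in the 3 pairs). It was 0.07 in 22 cell cycle genes (0.02 without YFP+ replicate 2), where Mki67 had 238, 188 and 168 against 278, 453 and 292 and did not pass. It was 0.00244 in 84 tested ribosomal protein genes (0.10 without that library), and -0.08 in 15 interferon-stimulated genes (-0.23 without that library). Outside the BCL2 family no gene of these lists passed in limma or DESeq2 with the block. Chemokine receptors and integrins had a median of -0.09, with Ccr9 the only one of 16 past the threshold in DESeq2 with the block. The sort markers had -0.0039 and the reporter loci and their neighbours 0.10.

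Segments of the T cell receptor genes gave 1 gene past the threshold in DESeq2 with the block. Of 113 Trav segments 77 had a negative log2 fold change, beside 46.4% of all genes, and 41 were lower in all 3 pairs, beside 12.9%. The median of these segments was -0.15, and 0.01 without YFP+ replicate 2. In pairs 1, 2 and 3 it was -0.002, -0.19 and -0.18. None passed in limma or in DESeq2 with the block. The most abundant by normalized count, Trav14n-1, had 1236, 1088 and 1294 against 1224, 942 and 1074, and the groups overlapped. Trav12d-2 had 738, 538 and 696 against 477, 344 and 455, without overlap, and differed by -0.63, -0.64 and -0.61 within the pairs. Trav12n-2 had 589.7, 447 and 559.9 against 386, 282 and 384, also without overlap. Of 22 Trbv segments Trbv1 alone, singled out by this result, passed in DESeq2 with the block (2370.3, 1707 and 2114 against 1845, 1330.2 and 1597, log2 fold change -0.38, adjusted p = 0.0053, and 0.186 without YFP+ replicate 2). Trbv1 was lower in all 3 pairs, and the median of the 22 segments was -0.07 (-0.02 without that library).

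**Figure D4:**
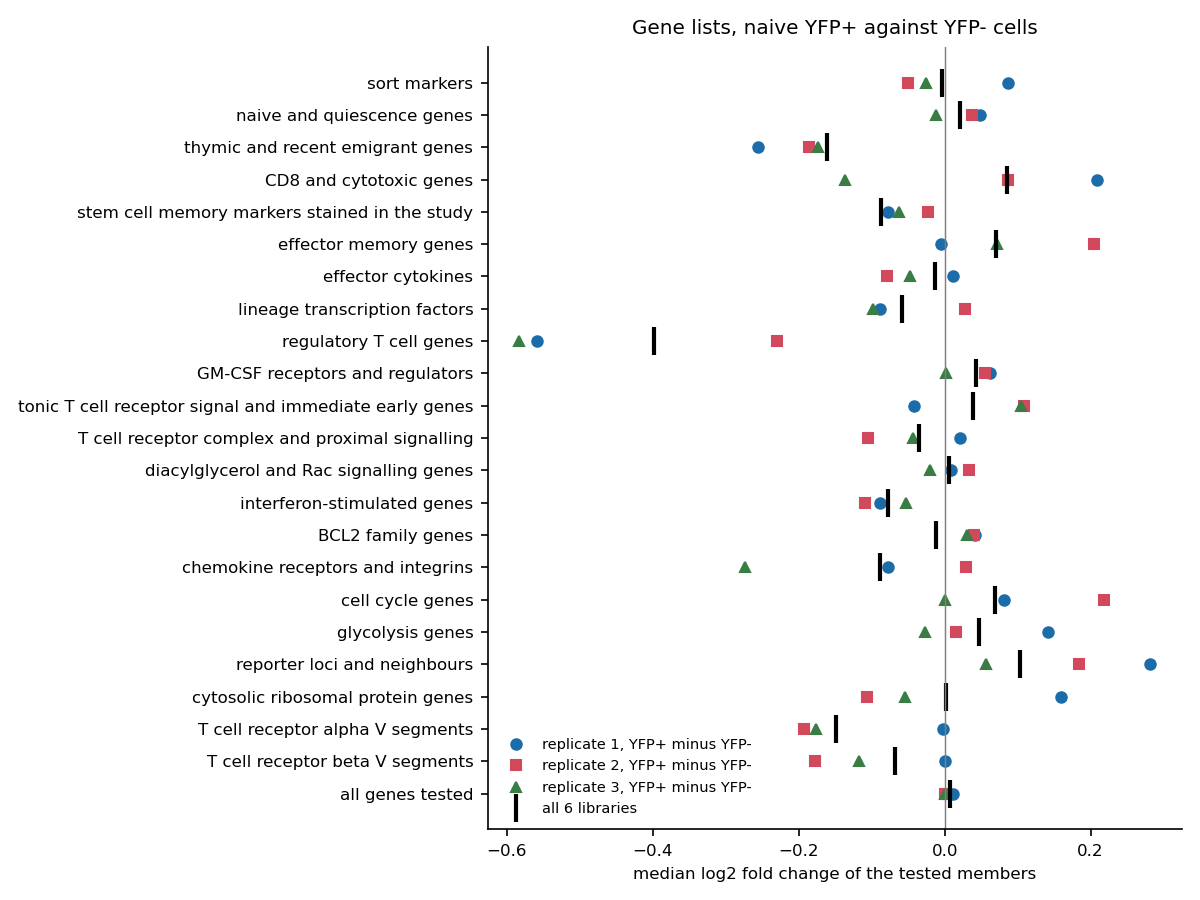
Median log2 fold change of the tested members of 22 gene lists and of all genes, YFP+ minus YFP- naive cells, for each same-numbered pair (coloured symbols) and for the 6 libraries together (black bar). Regulatory T cell genes lie lowest, and the symbols of all genes lie at 0. All 3 symbols are below 0 for regulatory T cell genes and for thymic and recent emigrant genes. The same holds for interferon-stimulated genes, the stained stem cell memory markers and the T cell receptor alpha V segments.

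YFP status made a larger difference in TEM cells, where 1087 genes had an adjusted p of 0.05 or less in limma (6.97%). The difference between the 2 effects, tested as an interaction, was called for 483 genes (3.1%), and 554 (3.55%) had an adjusted p of 0.05 or less. Without YFP- TEM replicate 3 the number called was 255. Of the 69 genes of the blocked DESeq2 fit in naive cells, 9 passed in TEM cells in limma in the same direction and 2 in the opposite one. Dntt had 449, 211 and 408 in YFP- and 33.4, 7.25 and 8.55 in YFP+ TEM cells, where it fell by 4.61 (limma, adjusted p = 1.5e-04), a larger difference than in naive cells by the interaction (adjusted p = 0.0196). The conventional dendritic cell markers summed to 243000.0, 175400.0 and 367900.0 normalized counts in the YFP- TEM libraries and 29550.0, 11630.0 and 23870.0 in the YFP+ ones. Those of plasmacytoid dendritic cells, which also transcribe Dntt, summed to 26960.0, 15800.0 and 28050.0 in the YFP- and 9584, 7105 and 10150.0 in the YFP+ TEM libraries, and the part of such cells in these TEM differences was not tested. Foxp3 fell by 0.87 in TEM cells (adjusted p = 0.045), and Gt(ROSA)26Sor rose by 1.46 (adjusted p = 0.001). Their interactions did not pass (adjusted p = 0.997 and 0.695, limma). Il2ra had a log2 fold change of 0.62 in TEM cells, which did not pass (limma, adjusted p = 0.225), with an interaction of 1.68 (SE 0.36, adjusted p = 0.0234).

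**Figure D5:**
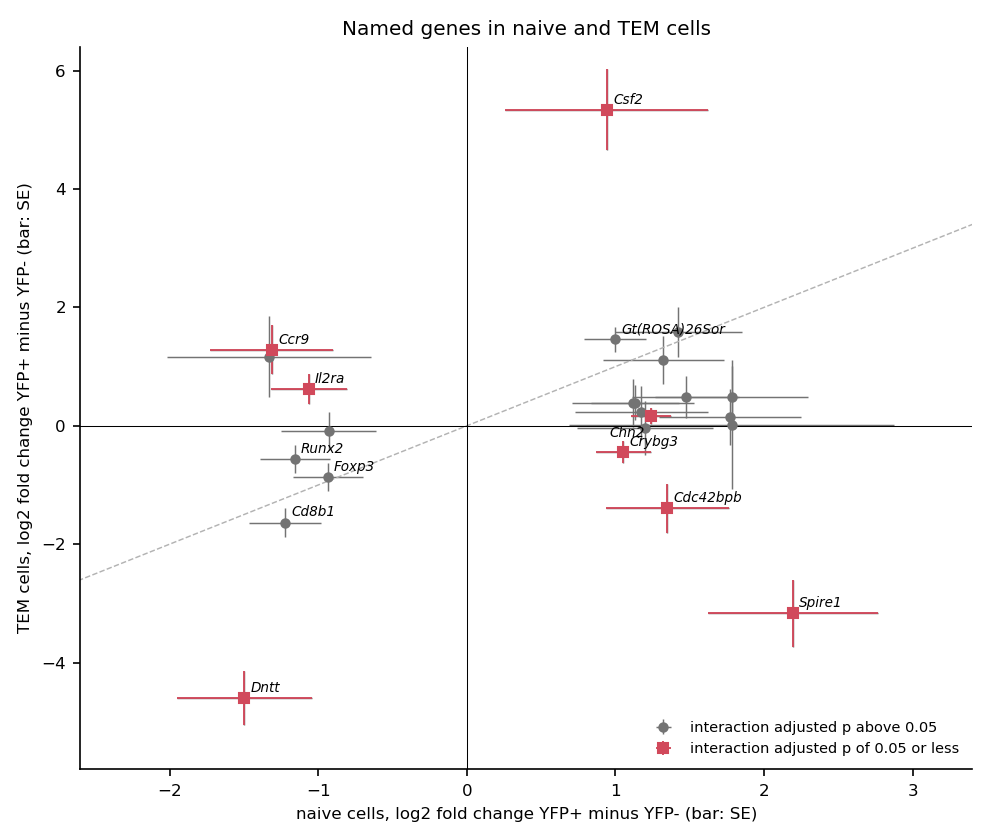
Log2 fold change of YFP+ against YFP- cells in naive (horizontal axis) and TEM cells (vertical axis) for 24 named genes, with bars for the SE and a dashed line where both are equal. Red squares are genes with an interaction adjusted p of 0.05 or less in limma, among them Chn2, Crybg3, Dntt, Il2ra and Ccr9.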

How the data were processed

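RNA of the sorted naive and TEM cells (200 ng) was made into TruSeq Stranded Total RNA libraries. The authors mapped reads to mm10 with DRAGEN, counted them with Rsubread and deposited a signal, the counts divided by DESeq2 size factors; annotation and strand setting are not given in the sources used here. Whole reads were recovered from 100% of values (tolerance 0.001, larger in proportion to the count for high counts). The table holds 17523 genes, of which 16749 were named through RefSeq.

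Genes that reached 5 normalized counts in 3 or more of 12 libraries (15587) were fitted with 4 group means in limma 3.58.1 (R 4.3.3, eBayes with trend). DESeq2 1.42.0 and edgeR 4.0.16 on the reads were alternatives. These tools without the block, and limma with it, were tested on simulated data. A group with at most 3 reads in each library was at the floor, which covers counting error only. Correlations of same-numbered naive libraries after removal of group means were 0.306, 0.491 and 0.36, and at most 0.0184 for different numbers, so the numbers were taken as pairs.

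Comparisons of 3 libraries a side used limma's moderated t test. Alternatives changed the prior count, filter, normalization, variance trend, tool, block and libraries. Annotated names came from RefSeq, 774 genes had none, and 0 columns were left unused.

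Genes given by rule were Chn2, Crybg3, Cd8b1 and Csf2, genes called in limma or in DESeq2 with the block, and the 8 largest increases and 8 largest decreases among genes with a mean of at least 50, no overlap and 1 sign in the 3 pairs. To these came members of 32 gene lists, in full for sort markers, reporter loci and stained markers, and otherwise the 2 most abundant and the 2 largest differences at a mean of at least 20. Members and lists were chosen with earlier results of these data known. Results of some list members are not reported here.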

Additional observations from a re-analysis of the deposited data

Results flagged for a closer look

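The effect of YFP status differed between TEM and naive cells, by limma's interaction at an adjusted p of 0.05 or less, for 8 of the 24 genes chosen by the rule and judged by the test and for Bcl2, beside 554 of all 15587 genes (3.55%). Most of the 24 were chosen for a large naive difference, which is a term of the interaction. Gene list members and other genes singled out, some of which also passed, are not counted here. The TEM minus naive difference in log2 fold change was -1.068 for Chn2 and -1.503 for Crybg3, which were higher in YFP+ naive cells. It was -3.109 for Dntt, lower in both cell types, and 1.680 for Il2ra and 2.595 for Ccr9, lower in YFP+ naive cells. It was 0.802 for Bcl2, named after its values were seen. For Spire1 it was -5.366 and for Cdc42bpb -2.746, genes highest among the naive libraries in YFP+ replicate 2. For Csf2 it was 4.398, a fitted value that depends on the prior count since naive cells had 0 to 4 reads.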

How the results depend on the processing

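The number of genes called in naive cells, 1 in limma without the block, was 2 with a prior count of 0.1, 8 in DESeq2 without the block, 0 in fits of the 6 naive libraries alone, 0 without both naive libraries of replicate 2, 0 at a log2 fold change of 2 or more and 0 to 1 with any 1 library left out. With the replicate number as a block it was 2 in limma, 2 in edgeR, 14 in DESeq2 and 0 in the 6 naive libraries. Leaving out YFP+ naive replicate 2 as well gave 4 in limma and 25 in DESeq2 with the block, and leaving out both naive libraries of replicate 2 gave 23 in DESeq2 with the block.

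The 388 genes higher by unadjusted p became 257 with quantile normalization, 258 in the 6 naive libraries alone and 259 to 602 with 1 library left out. The 130 lower genes became 213 with quantile normalization, 218 without both naive libraries of replicate 2 and 122 to 275 with 1 library left out. With the replicate block the higher genes were 630 in limma, 604 in edgeR, 668 in DESeq2 and 858 in the 6 naive libraries, and the lower genes 255, 234, 217 and 547. With the block and without YFP+ naive replicate 2 the higher genes were 427 in limma and 301 in DESeq2 and the lower genes 395 and 303. Without both libraries of replicate 2 they were 341 and 224 in DESeq2 with the block. The 483 interaction genes became 255 to 480 with 1 library left out, and 318 without YFP- TEM replicate 1 and 255 without YFP- TEM replicate 3. The log2 fold change of Csf2, with 0 to 4 reads in naive libraries, turned to -0.1089 in DESeq2 with the block without both naive libraries of replicate 2. No other direction turned among 36 genes, the block in limma changed no other call than those in the text, and the cause of these changes was not tested. The fits that combine the block with left-out libraries, and the block in the 6 naive libraries, were chosen after seeing the data.

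Each group had 3 libraries, sorted from the spleens of 3 mice. The labels do not say which mouse gave which library, so the pairing rests on the values. Replicate number and the sex of the mice varied together, with replicate 3 male and replicates 1 and 2 female in every group by Xist and Ddx3y. Transcripts of other cells in YFP+ naive replicate 2 were left out only with the whole library. Differences of a gene within cells and of the mixture of cells were not separated.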
